A study of Mus musculus with 4 samples.

Results

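In mouse stem cell cultures without Mettl3, 202 autosomal genes carried clearly more ribosome footprints than in wild-type cultures at both culture stages studied. They were chosen from the measured values themselves. The normalised footprint counts of a gene's RefSeq coding sequences were summed, the mean of the 4 libraries had to be 25 or more, and log2 of (KO + 1)/(WT + 1) had to reach 1.5, about 2.83-fold, in embryoid bodies (EBs) and again in embryonic stem cells (ESCs). Of 19444 autosomal genes in the table, 9261 had a mean of at least 25 and are called the tested genes. Both fold thresholds were met by 218 of these (2.35%), and 16 were set aside by name, among them the collagen, lysyl oxidase, fibulin and fibrillin genes, which leaves the 202. For scale, 44 tested genes were lower in KO by the same size at both stages. Because the KO to WT ratios chose the genes, those ratios are given as a description and without a test.

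The libraries came from C57BL/6 mouse cells of 4 kinds, Mettl3-KO EBs, WT EBs, Mettl3-KO ESCs and WT ESCs, with 1 library and no replicate of each. ESCs were kept without serum in N2B27 medium with LIF and the inhibitors CHIR99021 and PD0325901, which hold them in the naive ground state. EBs, the floating aggregates in which such cells differentiate, grew in medium with serum for 8 to 21 days, and the sources used here give neither the day at which each EB culture was taken nor the number of knockout clones. Ribosome profiling counts the mRNA fragments that ribosomes shield from nuclease, so a gene's count follows its mRNA level and its ribosome occupancy together, and from bulk cultures fewer cells of a type and less RNA per cell cannot be told apart.

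The mark m6A is a methyl group on adenosines of mRNA, and Mettl3 is the enzyme within the complex that places it. Marked transcripts are bound by YTH-domain proteins, and many are degraded faster for it. The mark is known to lie mostly in long internal exons and near stop codons, most often within the letters GGACT, and to be sparse close to splice junctions. In mouse ESCs the loss of Mettl3 is known to prolong naive pluripotency and to hinder differentiation.

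Gene reads numbered 4075850 to 11455539 per library, and both ESC libraries were deeper than both EB libraries. Footprints on Mettl3 itself numbered 327 in KO EBs against 429 in WT EBs, and 298 in KO ESCs against 563 in WT ESCs, counted over the whole coding sequence and not over the deleted stretch, so they are no check of the labels. The 10 pluripotency markers summed to 25575 in KO EBs against 19694 in WT EBs, and to 18422 in KO ESCs against 26713 in WT ESCs. The 11 visceral endoderm markers summed to 1754 in KO EBs against 46779 in WT EBs, and each of the 11 was lower in KO EBs by 2-fold or more. The EB cultures of the genotypes therefore differed in composition or expression. The pluripotency sum was high in all 4 libraries, although Esrrb, 1 of the 10, had 11.9 in KO EBs against 1.56 in WT EBs, and 9.60 in KO ESCs against 0.778 in WT ESCs.

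Across the 202 genes the median log2 ratio of KO to WT was 2.27 in EBs, with values up to 5.85, and 1.95 in ESCs, with values up to 4.68. Over all tested genes the medians were -0.08 in EBs and 0.00 in ESCs. At the level the rule asked for, log2 1.5, 8.21% of all tested genes were higher in KO EBs and 4.86% in KO ESCs. The larger of a gene's 2 ratios was the EB ratio for 125 of the genes and the ESC ratio for 77. Both KO libraries stood above both WT libraries whatever the stage for 185 of the 202. This follows largely from the ratios that chose the genes, and nothing is read from it beside the 21.9% of all tested genes with the same order. The median gene had 162 normalised footprints in KO EBs against 27.3 in WT EBs, and 117 in KO ESCs against 25.3 in WT ESCs. Most were thus scarce in WT cultures: the median of all tested genes was 323 in WT EBs and 305 in WT ESCs.

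**Figure D1:**
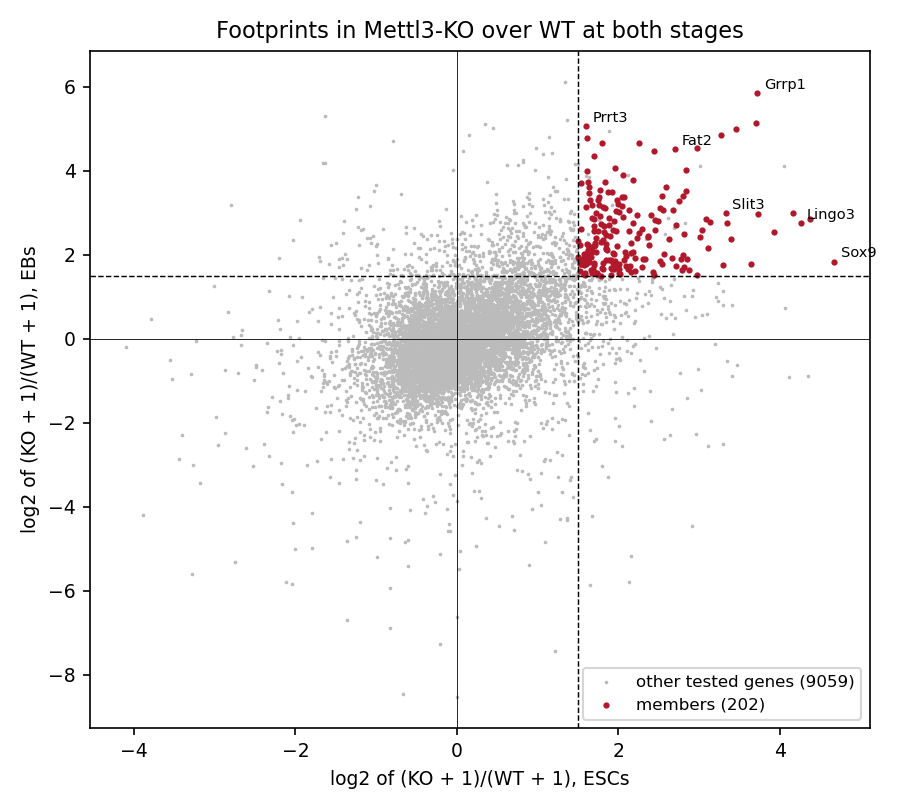
Each point is a gene, placed by log2 of (KO + 1)/(WT + 1) of its normalised footprint count in ESCs (horizontal) and in EBs (vertical), with the 202 genes in red, the other tested genes in grey and dashed lines at 1.5. Grrp1, Prrt3 and Fat2 stand high on the EB axis and Sox9 far along the ESC axis, while most of the 202 sit close to the dashed corner.

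The depth behind the values varied. The mean over the libraries was under 100 for 110 of the genes and 100 or more for the other 92. Under 10 reads lay behind at least 1 library's value for 76 genes, and 3 genes had a library with 0 reads. The exact 95% binomial interval of the KO to WT read ratio lay above 1 at both stages for 201 genes and above 2 at both stages for 167. Nlrp4a was the exception at 1, with 10.4 in KO EBs against 1.56 in WT EBs, a ratio of 6.70 with an interval of 0.861 to 302. All such intervals here cover counting error only and say nothing of the spread between cultures. Close to the fold threshold, Ninl, Smpdl3b and Sned1 were just inside and Gm13889, Amz1 and Znhit2 just outside, the smaller of their 2 log2 ratios being 1.501, 1.502 and 1.505 inside, and 1.498, 1.497 and 1.4945 outside. Close to the mean of 25, Spef2, Itga11 and Cybrd1 had means of 25.3 to 25.7, and Hoxc6, Spag6l and Hlx stayed outside with means of 24.8 to 24.9.

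The promoters of the genes held fewer CG dinucleotides than those of other genes, a feature the rule did not use. A RefSeq window from 250 bases before to 50 bases after a transcription start, on build GRCm38.p6, was on hand for 139 of the 202 genes and 7415 of the tested genes. The median number of CG was 13 in the genes' windows and 21.5 over all tested genes. Under 10 CG were found in 53 of the 139 windows (38.1%), against 12.5% over all tested genes. Among genes with a mean of at least 100, the shares were 28.8% of the members' windows and 9.03% of all. The share of tested genes that belonged to the 202 was 7.14% where the window had 0 to 4 CG, 5.00% at 5 to 9, 1.92% at 10 to 19, 1.17% at 20 to 29 and 0.766% at 30 or more. These 4 stretches, each the 250 bases before the start, 5′ to 3′ on the gene's strand and with every CG in capitals, show the range from CG-poor to CG-rich promoters among the genes. They belong to Mmp3 (chr9:7445572-7445821, plus strand), Serpinf1 (chr11:75422624-75422873, minus strand), Tbcc (chr17:46890371-46890620, plus strand) and Pop7 (chr5:137502430-137502679, minus strand).
Mmp3: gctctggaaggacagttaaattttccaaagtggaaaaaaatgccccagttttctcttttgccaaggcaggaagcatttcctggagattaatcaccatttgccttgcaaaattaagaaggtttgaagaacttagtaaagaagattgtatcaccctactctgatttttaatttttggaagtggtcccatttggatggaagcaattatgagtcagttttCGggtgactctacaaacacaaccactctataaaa
Serpinf1: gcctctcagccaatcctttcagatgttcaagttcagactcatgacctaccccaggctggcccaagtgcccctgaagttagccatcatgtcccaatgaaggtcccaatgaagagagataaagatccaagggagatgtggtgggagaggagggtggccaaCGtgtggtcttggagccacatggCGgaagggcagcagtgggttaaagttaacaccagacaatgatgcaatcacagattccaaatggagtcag
Tbcc: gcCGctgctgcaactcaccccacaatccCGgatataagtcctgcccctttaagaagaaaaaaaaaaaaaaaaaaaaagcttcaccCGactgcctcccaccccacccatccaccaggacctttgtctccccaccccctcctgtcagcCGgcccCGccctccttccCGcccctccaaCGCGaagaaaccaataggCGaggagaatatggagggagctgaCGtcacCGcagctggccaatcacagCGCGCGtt
Pop7: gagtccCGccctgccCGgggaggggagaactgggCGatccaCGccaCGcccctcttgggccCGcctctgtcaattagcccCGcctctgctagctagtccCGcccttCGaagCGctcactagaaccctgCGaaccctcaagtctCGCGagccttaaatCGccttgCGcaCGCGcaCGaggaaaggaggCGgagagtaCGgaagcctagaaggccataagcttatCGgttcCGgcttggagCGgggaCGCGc
The stretches of Mmp3 and Serpinf1, a secreted protease and a secreted factor, hold 1 and 2 CG, and those of Tbcc and Pop7, which serve tubulin folding and tRNA maturation in all cells, hold 14 and 25. Both kinds of promoter were thus found among the genes.

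**Figure D2:**
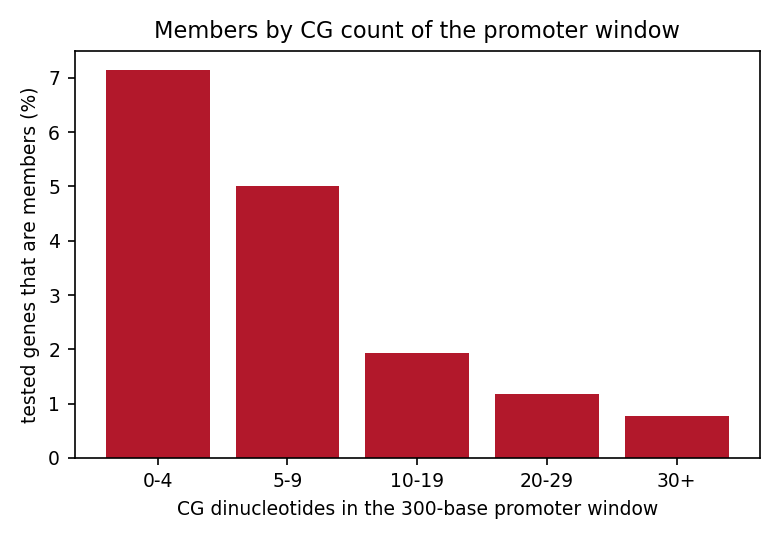
Bars give the percent of tested genes that belong to the 202, in bins of the number of CG dinucleotides in the 300-base promoter window. The share is highest at 0 to 4 CG (7.14%) and lowest at 30 or more (0.766%).

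A search of the same windows on both strands for 6 short motifs, which do not overlap one another's letters as searched, gave shares near the background for most. The GC box GGGCGG, a site of Sp-family factors, was in 56.1% of the genes' windows and 70.2% of all. TATAAA, the TATA box, was in 8.63% and 8.01%, and TGANTCA, the AP-1 motif, in 7.91% and 5.22%. The TEAD motif GGAATG was in 10.1% and 13.3%, the E-box CACGTG in 8.63% and 11.8%, and the interferon-stimulated response element (GAAA, any pair of bases, then GAAA) in 1.44% and 3.05%. Such a match describes letters and not bound sites.

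Matrix proteins made up the densest of the 14 role lists among the genes: 10 of 47 tested matrix glycoproteins and proteoglycans belonged to the 202, against 2.18% of all tested genes, with the lists drawn up when earlier results of these data were known. Of the 47, members included, 28 were at least 2-fold higher and 6 lower in KO EBs, and 20 were higher and 2 lower in KO ESCs. Over all tested genes, 14.9% were higher by 2-fold or more and 12.3% lower in KO EBs, and 10.6% were higher and 4.08% lower in KO ESCs. Tnc (chr4:63959785-64047015), which encodes tenascin C, a glycoprotein of remodelling and embryonic connective tissue, had 1045 in KO EBs against 99.7 in WT EBs, and 148 in KO ESCs against 42.8 in WT ESCs. The KO EB library was far above the other 3, with an EB ratio of 10.5 (95% interval 8.10 to 13.8) and an ESC ratio of 3.45 (2.58 to 4.70). Matn1 (chr4:130944385-130955476), a matrilin of cartilage, had 559.8 in KO EBs against 45.2 in WT EBs, and 164 in KO ESCs against 26.5 in WT ESCs. Its relative Matn2, found in many basement membranes, had 225 in KO EBs against 70.1 in WT EBs, and 118 in KO ESCs against 26.5 in WT ESCs. Both matrilins were highest in KO EBs and lowest in WT ESCs, although coding exons of Matn2 overlap another gene on the opposite strand and it is unknown whether counting used strand.

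Emilin1, an elastic fibre glycoprotein, had 563 in KO EBs against 157 in WT EBs, and 223 in KO ESCs against 70.8 in WT ESCs, and its paralog Emilin3 had 97 in KO EBs against 15.6 in WT EBs, and 99.2 in KO ESCs against 21.8 in WT ESCs. Emilin1 was more than 2-fold higher in EBs than in ESCs of either genotype, and Emilin3 was almost level between stages. Ltbp2, a fibrillin-binding protein of microfibrils, had 322 in KO EBs against 45.2 in WT EBs, and 83.8 in KO ESCs against 14 in WT ESCs. Thbs2, an antiangiogenic matricellular protein, had 427 in KO EBs against 77.9 in WT EBs, and 116 in KO ESCs against 21.8 in WT ESCs. For Emilin1, Ltbp2 and Thbs2 the 4 libraries stood in the same order, KO EBs, then KO ESCs, then WT EBs and WT ESCs. Cspg4 (NG2), a proteoglycan of pericytes and glial precursors, had 261 in KO EBs against 39 in WT EBs, and 51.7 in KO ESCs against 7.0 in WT ESCs. Hapln3, which links proteoglycans to hyaluronan, had 133 in KO EBs against 10.9 in WT EBs, and 162 in KO ESCs against 42 in WT ESCs, and Lama4, a laminin chain of vessel basement membrane, had 118 in KO EBs against 23.4 in WT EBs, and 178 in KO ESCs against 53.7 in WT ESCs. Hapln3 and Lama4 ran the other way between stages, with the lowest value of the 4 in WT EBs.

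Proteases of the matrix contributed 7 of 63 tested genes of their list (11.1%), against 2.18% of all tested genes. Of the 63, 23 were at least 2-fold higher and 12 lower in KO EBs, against 14.9% and 12.3% of all tested genes. In KO ESCs 21 were higher and 1 lower, against 10.6% and 4.08%. Mmp14 (chr14:54431598-54442456), the membrane-bound metalloproteinase that activates pro-Mmp2, had 1882 in KO EBs against 521 in WT EBs, and 1379 in KO ESCs against 354 in WT ESCs. It was among the genes with the most reads, so its EB ratio of 3.62 (3.20 to 4.09) and ESC ratio of 3.90 (3.52 to 4.31) had narrow intervals. Mmp9 (chr2:164940326-164955850), a gelatinase, had 737 in KO EBs against 257 in WT EBs, and 63.5 in KO ESCs against 10.9 in WT ESCs. Mmp3 (chr9:7445822-7455975), stromelysin 1, had 310.5 in KO EBs against 93.5 in WT EBs, and 36.3 in KO ESCs against 4.67 in WT ESCs. For both the WT EB value exceeded the KO ESC value, so the KO and WT libraries overlapped once the stages were pooled. Copied stretches made up 20.5% of the 28-base windows of the Mmp3 coding sequence, which makes its counts less certain.

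Mmp23, a membrane-anchored metalloproteinase, had 361 in KO EBs against 67 in WT EBs, and 329 in KO ESCs against 39.7 in WT ESCs, close between stages in KO. Adamts8, a secreted metalloproteinase with thrombospondin repeats, had 216 in KO EBs against 12.5 in WT EBs, and 329 in KO ESCs against 45.1 in WT ESCs, so its lowest value was in WT EBs, and its EB ratio of 17.4 had a wide interval (8.58 to 41). Serpinf1 (chr11:75410029-75422623), which encodes the secreted antiangiogenic factor PEDF, had 1324 in KO EBs against 330.4 in WT EBs, and 682 in KO ESCs against 97.3 in WT ESCs. Its ESC ratio of 7.01 (5.83 to 8.49) exceeded its EB ratio of 4.01 (3.45 to 4.68).

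Fibroblast markers overlapped with the rule. Of 18 fibroblast or mesenchyme markers, 9 had a mean of at least 25, of which 8 were at least 2-fold higher in KO EBs and 7 in KO ESCs, against 14.9% and 10.6% of all tested genes. Of these 9, 6 met the thresholds of the rule itself, so their direction was fixed by it: Cd248 and S100a4 belong to the 202, and Col1a1, Col1a2, Col3a1 and Twist1 were set aside by name. Summed over the 18 they reached 8174 in KO EBs against 1953 in WT EBs, and 3906 in KO ESCs against 2185 in WT ESCs. Markers listed at 0 numbered 4 in KO EBs, 4 in WT EBs, 4 in KO ESCs and 6 in WT ESCs, and Pdgfra, Pdgfrb, Postn and Dcn were at 0 in all 4. Pax6, Map2, Dcx, Elf5, Eomes and Pecam1, from other marker lists, were also at 0 in all 4. The reason was not tested, and a 0 here is not read as lack of expression. The part of fibroblast or mesenchyme cells in the result was not tested. Cd248 (endosialin), a surface protein of stromal cells and pericytes, had 321 in KO EBs against 29.6 in WT EBs, and 195 in KO ESCs against 27.2 in WT ESCs.

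**Figure D3:**
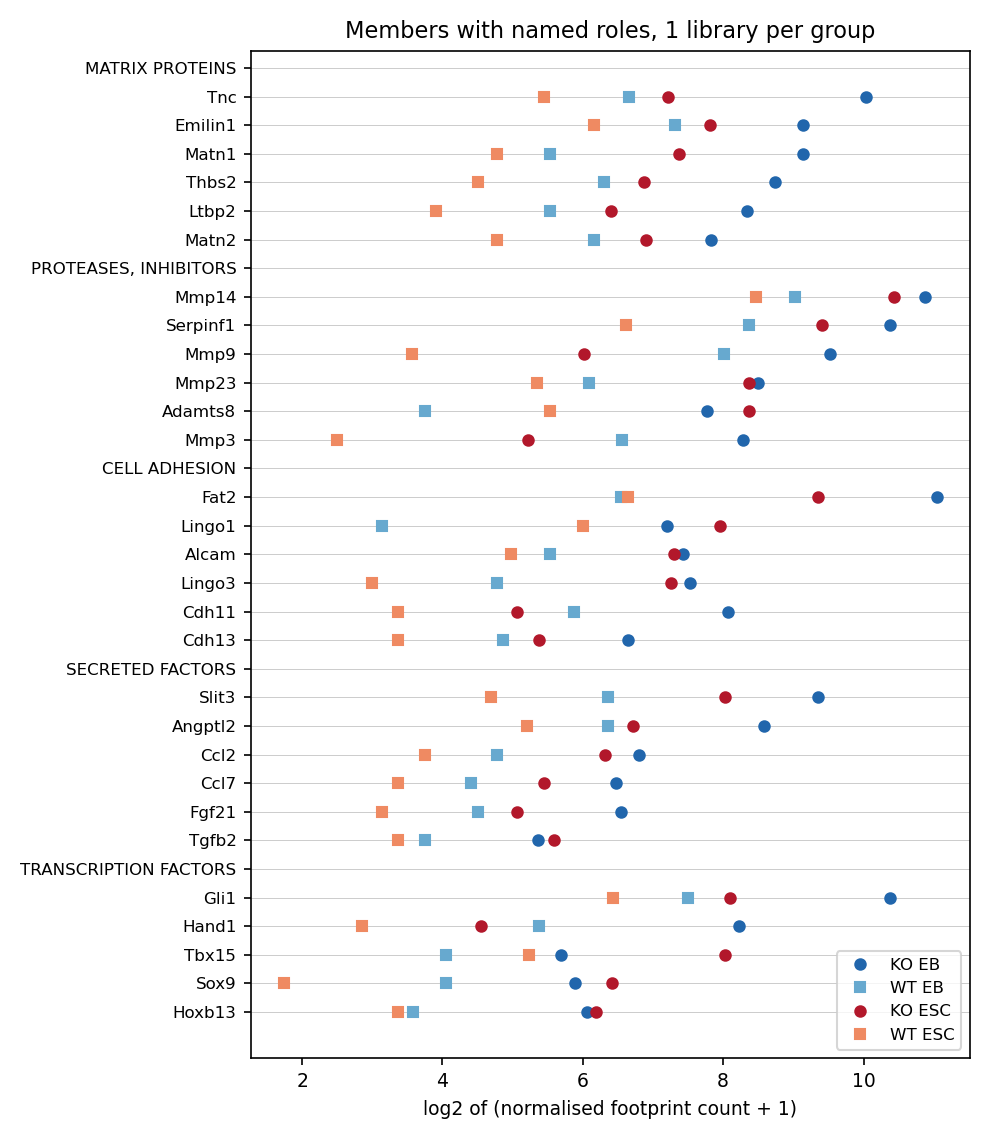
Log2 of (normalised footprint count + 1) of the genes of 5 role lists, up to 6 per list, with circles for KO and squares for WT, blue for EBs and red or orange for ESCs, 1 library each. At each stage the circle lies right of the square, by the choice of the genes, while the order of stages differs from gene to gene, as for Tnc (KO EBs highest) and Tbx15 (KO ESCs highest).

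Cell adhesion proteins gave 8 of 71 tested genes of their list (11.3%), against 2.18% of all tested genes. Of the 71, 19 were at least 2-fold higher and 10 lower in KO EBs, against 14.9% and 12.3% of all tested genes. In KO ESCs 17 were higher and 7 lower, against 10.6% and 4.08%. Fat2 (chr11:55250609-55337505), a giant atypical cadherin, had 2117 in KO EBs against 92 in WT EBs, and 649.7 in KO ESCs against 98.8 in WT ESCs. WT cultures held similar levels at both stages, and KO cultures stood 23-fold (17.7 to 30.4) above them in EBs and 6.57-fold (5.47 to 7.95) in ESCs. Another giant cadherin, Dchs1, which pairs with Fat4 in planar polarity, had 97 in KO EBs against 21.8 in WT EBs, and 21.3 in KO ESCs against 6.23 in WT ESCs. The classical cadherin Cdh11 of mesenchymal cells had 269 in KO EBs against 57.7 in WT EBs, and 32.5 in KO ESCs against 9.34 in WT ESCs, and Cdh13, a cadherin held by a lipid anchor, had 98.5 in KO EBs against 28.1 in WT EBs, and 40.5 in KO ESCs against 9.34 in WT ESCs. All 3 were highest in KO EBs and lowest in WT ESCs.

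Alcam, an immunoglobulin-family adhesion receptor, had 172 in KO EBs against 45.2 in WT EBs, and 156 in KO ESCs against 30.4 in WT ESCs. The leucine-rich neuronal membrane proteins Lingo1 and Lingo3 parted in WT cultures. Lingo1 had 146 in KO EBs against 7.79 in WT EBs, and 248 in KO ESCs against 63 in WT ESCs, with its lowest value in WT EBs. Lingo3 had 184 in KO EBs against 26.5 in WT EBs, and 153 in KO ESCs against 7.0 in WT ESCs, with its lowest value in WT ESCs, where 9 reads lay behind it, and an ESC ratio of 21.8 (11.3 to 48.1). Itga11, the collagen-binding integrin alpha chain of fibroblasts, had 73.1 in KO EBs against 9.35 in WT EBs, and 19.7 in KO ESCs against 0 reads in WT ESCs. Set against a floor of 3 reads in that library, it was at least 8.45-fold higher in KO ESCs.

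Secreted growth factors and antagonists gave 6 of 61 tested genes (9.84%), against 2.18% of all tested genes. Of the 61, 32 were at least 2-fold higher and 9 lower in KO EBs, against 14.9% and 12.3% of all tested genes. In KO ESCs 26 were higher and 2 lower, against 10.6% and 4.08%. Slit3 (chr11:35121456-35708507), a ligand of Robo receptors, had 651 in KO EBs against 81 in WT EBs, and 261 in KO ESCs against 24.9 in WT ESCs. Its ratios of 8.03 (6.01 to 10.9) in EBs and 10.5 (7.32 to 15.5) in ESCs were similar, and it was higher in EBs than in ESCs by 2.49-fold (2.19 to 2.84) in KO and 3.25-fold (2.06 to 5.22) in WT. Angptl2, a secreted angiopoietin-like protein, had 382 in KO EBs against 81 in WT EBs, and 105 in KO ESCs against 35.8 in WT ESCs. Fgf21, a hormone-like fibroblast growth factor, had 92.5 in KO EBs against 21.8 in WT EBs, and 32.5 in KO ESCs against 7.78 in WT ESCs, and Tgfb2, a TGF-beta ligand, had 40.3 in KO EBs against 12.5 in WT EBs, and 46.9 in KO ESCs against 9.34 in WT ESCs, the last with few reads.

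The chemokine genes Ccl2 and Ccl7, whose products draw monocytes through Ccr2, lie 8259 bp apart on chromosome 11 (chr11:82035577-82037452 and chr11:82045712-82047525) with no tested gene between. Ccl2 had 110.5 in KO EBs against 26.5 in WT EBs, and 78.4 in KO ESCs against 12.5 in WT ESCs, and Ccl7 had 88.1 in KO EBs against 20.3 in WT EBs, and 42.7 in KO ESCs against 9.34 in WT ESCs. The neighbours ran alike, with EB ratios of 4.17 (2.44 to 7.54) and 4.35 (2.36 to 8.64). Of 63 tested growth factor receptors Fzd1 belonged to the 202, which is 1.59% and near the 2.18% of all tested genes. That Wnt receptor had 95.5 in KO EBs against 26.5 in WT EBs, and 65.1 in KO ESCs against 21.8 in WT ESCs. Its list had 24 genes at least 2-fold higher and 4 lower in KO EBs, and 4 higher and 4 lower in KO ESCs. The matching shares of all tested genes were 14.9% and 12.3% in KO EBs, and 10.6% and 4.08% in KO ESCs. Of 20 tested axon guidance ligands, Sema5a was the member (5%, against 2.18% of all tested genes). It had 696 in KO EBs against 79.5 in WT EBs, and 541 in KO ESCs against 93.4 in WT ESCs.

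Developmental transcription factors gave 9 of 113 tested genes (7.96%), against 2.18% of all tested genes. Of the 113, 33 were at least 2-fold higher and 15 lower in KO EBs, against 14.9% and 12.3% of all tested genes. In KO ESCs 24 were higher and 4 lower, against 10.6% and 4.08%. Gli1 (chr10:127329882-127341579), both an effector and a readout gene of Hedgehog signalling, had 1327 in KO EBs against 179 in WT EBs, and 273 in KO ESCs against 84.8 in WT ESCs. KO EBs stood far above the other 3 libraries, with an EB ratio of 7.40 (6.09 to 9.07). Hand1, a factor of trophoblast giant cells, heart and extraembryonic mesoderm, had 299 in KO EBs against 40.5 in WT EBs, and 22.4 in KO ESCs against 6.23 in WT ESCs. Of the 11 trophoblast markers Hand1 belongs to the 202 and Ascl2 met both thresholds but was set aside by name, and the list summed to 4297 in KO EBs against 5597 in WT EBs, and to 1214 in KO ESCs against 384 in WT ESCs.

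Sox9 (chr11:112782210-112787757), a factor of cartilage and many epithelial progenitors, had 58.2 in KO EBs against 15.6 in WT EBs, and 84.3 in KO ESCs against 2.33 in WT ESCs. Its ESC ratio, 36.1 (12.1 to 177), was the largest of the ESC ratios on the log2 scale and rested on 3 reads in WT ESCs. Sox10, of neural crest and glia, had 118 in KO EBs against 9.35 in WT EBs, and 11.7 in KO ESCs against 0.778 in WT ESCs, with 1 read in WT ESCs. Sox18, of endothelium, had 74.6 in KO EBs against 4.68 in WT EBs, and 30.9 in KO ESCs against 9.34 in WT ESCs. The 3 Sox genes therefore had little signal in WT, and the upper limits of their ratios are loose. Tbx15, a limb and skeletal factor, had 50.8 in KO EBs against 15.6 in WT EBs, and 259 in KO ESCs against 36.6 in WT ESCs, with KO ESCs highest. The posterior Hox genes Hoxb13 and Hoxd9 had 65.7 in KO EBs against 10.9 in WT EBs, and 72 in KO ESCs against 9.34 in WT ESCs for Hoxb13, and 37.3 in KO EBs against 1.56 in WT EBs, and 64.5 in KO ESCs against 14.8 in WT ESCs for Hoxd9.

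Of 171 tested solute carriers 5 belonged (2.92%), a share near the 2.18% of all tested genes. Of the 171, 36 were at least 2-fold higher and 18 lower in KO EBs, against 14.9% and 12.3% of all tested genes. In KO ESCs 18 were higher and 15 lower, against 10.6% and 4.08%. Slc22a17, a receptor for lipocalin 2, had 449 in KO EBs against 96.6 in WT EBs, and 353 in KO ESCs against 88.7 in WT ESCs. The zinc carrier of synaptic vesicles Slc30a3 had 234 in KO EBs against 24.9 in WT EBs, and 70.9 in KO ESCs against 20.2 in WT ESCs, and the divalent metal carrier of phagosomes Slc11a1 had 139 in KO EBs against 28.1 in WT EBs, and 83.8 in KO ESCs against 22.6 in WT ESCs. Slc47a1, an exporter of organic cations, had 109 in KO EBs against 9.35 in WT EBs, and 145 in KO ESCs against 24.1 in WT ESCs. Slc51a, a subunit of the bile acid exporter of the gut, had 73.1 in KO EBs against 4.68 in WT EBs, and 332 in KO ESCs against 114 in WT ESCs, with 3 reads in WT EBs.

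Among 73 tested genes taken by name as ion channel subunits, 29 were at least 2-fold higher and 5 lower in KO EBs, against 14.9% and 12.3% of all. In KO ESCs 27 were higher and 4 lower, against 10.6% and 4.08%. Of the 73, 6 belonged to the 202 (8.22%), against 2.18% of all tested genes. Itprip and Itpripl2 are 2 of the 6 but are no channels, having entered by their names. The others were Best1, an anion channel of retinal pigment epithelium, Scn2b, an auxiliary subunit of sodium channels, P2rx3, an ATP-gated channel of sensory neurons, and Kcng2, a silent potassium channel subunit. Best1 had 118 in KO EBs against 31.2 in WT EBs, and 45.9 in KO ESCs against 10.1 in WT ESCs. Of 40 tested G protein-coupled receptors, Gpr182 and Htr5b belonged (5%, against 2.18% of all tested genes). Of the 40, 11 were at least 2-fold higher and 3 lower in KO EBs, against 14.9% and 12.3% of all tested genes. In KO ESCs 6 were higher and 3 lower, against 10.6% and 4.08%. Htr5b, a serotonin receptor, had 68.7 in KO EBs against 1.56 in WT EBs, and 61.3 in KO ESCs against 19.5 in WT ESCs, with 1 read in WT EBs.

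Of 58 tested cytochrome P450, aldehyde dehydrogenase and glutathione transferase genes, 2 belonged to the 202 (3.45%, near the 2.18% of all tested genes). They were Cyp1b1, which hydroxylates oestrogens and polycyclic aromatic compounds, and Cyp4f39, a hydroxylase of very long fatty acids. Cyp1b1 had 213 in KO EBs against 35.8 in WT EBs, and 73.6 in KO ESCs against 3.89 in WT ESCs, and Cyp4f39 had 229.9 in KO EBs against 49.9 in WT EBs, and 467 in KO ESCs against 146 in WT ESCs. H2-K1, a classical class I molecule of antigen presentation, was the member among 11 tested genes of that list (9.09%, against 2.18% of all tested genes). It had 931 in KO EBs against 265 in WT EBs, and 568 in KO ESCs against 161 in WT ESCs. Copies elsewhere in the genome share 29.9% of its 28-base coding windows. Of 114 tested regulators of the actin cytoskeleton 3 belonged (2.63%, near the 2.18% of all tested genes), namely Tnc, which that list also carries, S100a4 and Cavin3. In that list 13 genes were at least 2-fold higher and 21 lower in KO EBs, with a median log2 ratio of -0.29. In KO ESCs 20 were higher and 4 lower. The matching shares of all tested genes were 14.9% and 12.3% in KO EBs, and 10.6% and 4.08% in KO ESCs. Of 33 cell cycle inhibitors and apoptosis genes 0 belonged, against 2.18% of all tested genes, and nothing is read from so short a list. S100a4, a calcium-binding protein of motile cells, had 178 in KO EBs against 40.5 in WT EBs, and 30.9 in KO ESCs against 7.78 in WT ESCs, and Cavin3, a coat protein of caveolae, had 64.2 in KO EBs against 6.23 in WT EBs, and 77.3 in KO ESCs against 17.9 in WT ESCs. The 14 lists took in 60 of the 202, which leaves 142 on none.

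The genes with the highest mean footprint counts, not corrected for length, were largely from that remainder, although Mmp14 and Fat2 of the lists above were also among them. Ercc4 (chr16:13109366-13152009), the nuclease subunit XPF of nucleotide excision repair, had 1843 in KO EBs against 371 in WT EBs, and 2507 in KO ESCs against 729 in WT ESCs. Its ratios of 4.97 (4.32 to 5.73) in EBs and 3.44 (3.20 to 3.69) in ESCs had narrow intervals. Ninl, a ninein-like protein of the centrosome, had 1802 in KO EBs against 636 in WT EBs, and 1810.0 in KO ESCs against 526 in WT ESCs, and Gusb, lysosomal beta-glucuronidase, had 1527 in KO EBs against 433 in WT EBs, and 1578 in KO ESCs against 486 in WT ESCs. For Ninl and Gusb the KO values were close between stages. Tmem132a, a membrane protein, had 1829 in KO EBs against 433 in WT EBs, and 1195 in KO ESCs against 360.4 in WT ESCs, and Radil, an effector of Rap GTPases in cell adhesion, had 1196 in KO EBs against 409.9 in WT EBs, and 1437 in KO ESCs against 429.6 in WT ESCs.

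Per kilobase of coding sequence the order was different, because short genes came first. Pop7 (chr5:137501439-137502429), a subunit of RNase P and RNase MRP, had 2604 normalised footprints per kb in KO EBs against 755 in WT EBs, and 2267 in KO ESCs against 780.2 in WT ESCs, the highest density of the 202. Tbcc (chr17:46890621-46892463), tubulin folding cofactor C, came second with 1494 per kb in KO EBs against 403 in WT EBs, and 1626 in KO ESCs against 545 in WT ESCs. Next was Bloc1s4, a subunit of the BLOC-1 complex of lysosome-related organelles, with 1903 per kb in KO EBs against 327 in WT EBs, and 1239 in KO ESCs against 348 in WT ESCs. The coding sequences of all 3 lie in 1 exon. The median density over the 202 was 129 per kb in KO EBs against 20.7 in WT EBs, and 84.6 in KO ESCs against 20.2 in WT ESCs.

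The largest EB ratios belonged to genes with few or no reads in WT EBs, some of which were well covered in WT ESCs. Grrp1 had 56.7 in KO EBs against 0 reads in WT EBs, and 166 in KO ESCs against 11.7 in WT ESCs. Against a floor of 3 reads it was at least 12.1-fold higher in KO EBs, and its ESC ratio was 14.3 (8.51 to 25.8). Tmem266, a voltage-sensor protein, had 143 in KO EBs against 3.12 in WT EBs, and 215 in KO ESCs against 15.6 in WT ESCs, with 2 reads in WT EBs. Prrt3 had 451 in KO EBs against 12.5 in WT EBs, and 626 in KO ESCs against 205 in WT ESCs, with 8 reads in WT EBs. Inpp5j, a phosphoinositide phosphatase, had 73.1 in KO EBs against 1.56 in WT EBs, and 91.2 in KO ESCs against 8.56 in WT ESCs, and Ffar3, a receptor for short-chain fatty acids, had 64.2 in KO EBs against 1.56 in WT EBs, and 149 in KO ESCs against 42 in WT ESCs, each with 1 read in WT EBs. Their EB ratios had lower limits of 8.04 for Inpp5j and 7.01 for Ffar3 and upper limits too high to be of use. Irs3, an insulin receptor substrate of rodents, led in ESCs after Sox9, Itga11 and Lingo3, with 94 in KO EBs against 10.9 in WT EBs, and 100.3 in KO ESCs against 4.67 in WT ESCs.

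Several further groups were picked out after their values were seen. Of the innate immune genes, Sting1, the adaptor of cyclic dinucleotide sensing, had 239 in KO EBs against 9.35 in WT EBs, and 387 in KO ESCs against 48.3 in WT ESCs. Ikbke, a kinase that activates interferon regulatory factors, had 37.3 in KO EBs against 4.68 in WT EBs, and 80.5 in KO ESCs against 7.0 in WT ESCs, and Oas2, an interferon-induced sensor of double-stranded RNA, had 62.7 in KO EBs against 10.9 in WT EBs, and 113 in KO ESCs against 21 in WT ESCs. Casq1 and Casq2, the calsequestrins that bind calcium in the sarcoplasmic reticulum of muscle, had 88.1 in KO EBs against 20.3 in WT EBs, and 32 in KO ESCs against 9.34 in WT ESCs for Casq1 and 179 in KO EBs against 4.68 in WT EBs, and 35.7 in KO ESCs against 2.33 in WT ESCs for Casq2. Enzymes of chondroitin sulfate were also present: Chst12, a sulfotransferase, had 1125 in KO EBs against 354 in WT EBs, and 752 in KO ESCs against 187 in WT ESCs, Chpf, a chain-elongating factor, had 613 in KO EBs against 129 in WT EBs, and 359 in KO ESCs against 109 in WT ESCs, and Arsb, which removes sulfate in lysosomes, had 243 in KO EBs against 29.6 in WT EBs, and 121 in KO ESCs against 35.8 in WT ESCs. P3h4, part of the collagen-modifying complex of the endoplasmic reticulum, had 985 in KO EBs against 265 in WT EBs, and 709 in KO ESCs against 142 in WT ESCs.

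The rule set no threshold on the change between stages within a genotype. Its mean filter and its KO to WT ratios used the same 4 libraries, though, so the stage change is not independent of the choice. A gene could pass the mean mainly through the library where it was high. The shares below are therefore a description. In KO cultures EBs exceeded ESCs by 2-fold or more for 59 of the 202 genes (29.2%) and fell short of them by as much for 21 (10.4%), against 8.96% and 6.62% of all tested genes. In WT cultures 58 (28.7%) were higher and 45 (22.3%) lower, against 10.9% and 7.77%. The lower shares fell under a limit on reads. Such a limit by itself removes genes that are low in a library, so the fall is not read as a result. With at least 10 reads in each library, a limit chosen after the data were seen, which 126 of the 202 and 8816 of all tested genes had, the shares lower in EBs were 3.97% of the members and 5.49% of all in KO, and 7.94% and 5.88% in WT. The shares higher in EBs were then 30.2% and 7.96% in KO, and 31.7% and 9.72% in WT. Split by level, among genes with a mean under 100, the shares higher in KO EBs were 34.5% of the members and 19.8% of all tested genes, and among genes above that mean they were 22.8% and 5.84%. In WT the matching shares were 29.1% and 22.6% under a mean of 100, and 28.3% and 7.48% above it. The shares lower in KO EBs were 13.6% of the members and 12.3% of all under a mean of 100, and 6.52% and 4.99% above it, and in WT EBs 27.3% and 17.3% under it, and 16.3% and 5.03% above it. The median log2 change was 0.39 in KO against -0.08 over all tested genes, and 0.16 in WT against -0.02.

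Direction was largely shared between the genotypes, with the same sign in 162 of the 202 genes and in 5349 of the 9261 tested. At 2-fold, 42 genes were higher in EBs in both genotypes, 18 lower in both and 79 under 2-fold in both, while 0 moved in opposite directions. Over all tested genes, 4.33% were higher in both, 2.01% lower in both and 73.0% under 2-fold in both. The share with opposite moves was not counted over all tested genes, so nothing is read from the 0. In KO but not in WT, 17 passed the higher call and 3 the lower one, and in WT but not in KO, 16 passed the higher call and 27 the lower one. The share over all tested genes was not counted for calls in a single genotype, so nothing is read from these counts. Whether the genotypes differ in these genes was not tested. Across the 202 genes the Spearman correlation between the stage changes in KO and in WT was 0.80 (n = 202 genes), and over all tested genes it was 0.28 (n = 9261). The 202 were chosen to have high ratios at both stages, which by itself ties the 2 changes together.

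**Figure D4:**
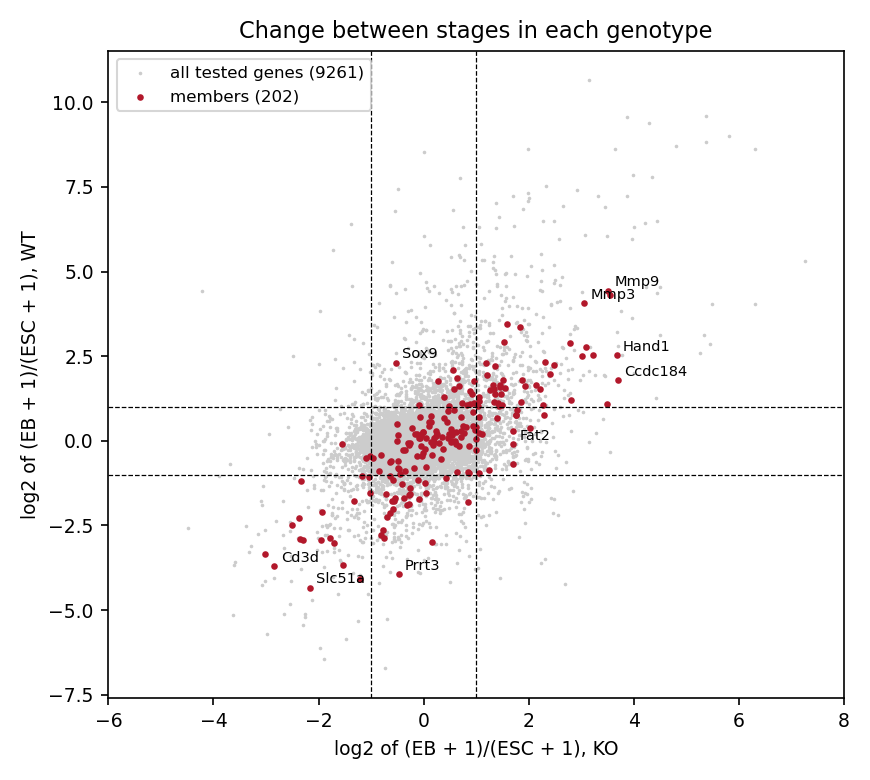
Log2 of (EB + 1)/(ESC + 1) of normalised footprint counts in KO (horizontal) and in WT (vertical), with the 202 genes in red, all tested genes in grey and dashed lines at 2-fold. The 202 spread from Cd3d and Slc51a at the lower left to Mmp9, Mmp3 and Hand1 at the upper right.

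The 42 genes higher in EBs of both genotypes (20.8% of the 202) held 5 of the 10 matrix members, 2 of the 7 protease members and 4 of the 8 adhesion members. Mmp9 was 11.6-fold (9.49 to 14.3) higher in EBs in KO and 23.6-fold (13.7 to 44.1) in WT. Mmp3 was 8.56-fold (6.48 to 11.4) and 20.02-fold (8.68 to 56.7) higher in KO and WT. Sod3, the extracellular superoxide dismutase, had 154 in KO EBs against 12.3 in KO ESCs, and 18.7 in WT EBs against 0 reads in WT ESCs. It was 12.5-fold (7.91 to 20.6) higher in KO and at least 8.01-fold higher in WT. Hand1 was 13.3-fold (9.51 to 19.1) higher in KO and 6.51-fold (2.86 to 16.6) in WT. Syt13, an atypical synaptotagmin, was 3.03-fold (2.49 to 3.68) higher in KO and 12.2-fold (6.21 to 26.7) in WT. Other genes of this group were Tnc, Gli1, Slit3, Cdh11, Thbs2, Ltbp2, Emilin1 and Sox10.

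In some genes the ratio of EBs to ESCs was larger in KO than in WT cultures. The WT intervals of Mzb1 and Ccdc184 were wide, and that of Fat2 was narrower. Mzb1, a chaperone of plasma cells, had 221 in KO EBs against 18.7 in KO ESCs, a ratio of 11.8 (8.14 to 17.6), and 7.79 in WT EBs against 3.11 in WT ESCs, a ratio of 2.50 (0.539 to 12.6). Ccdc184 was 13.6-fold (9.46 to 20.1) higher in KO and 4.0-fold (1.39 to 13) in WT. Fat2 was 3.26-fold (3.02 to 3.52) higher in KO, and its WT ratio was 0.930 (0.671 to 1.28).

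The 18 genes lower in EBs of both genotypes were of mixed kinds. Cd3d, a T cell receptor subunit, had 38.8 in KO EBs against 284 in KO ESCs, and 4.68 in WT EBs against 73.2 in WT ESCs. Rab38, a small GTPase of melanosome biogenesis, had 41.8 in KO EBs against 243 in KO ESCs, and 12.5 in WT EBs against 74.7 in WT ESCs. The EB to ESC ratios of Rab38, 0.172 (0.113 to 0.252) in KO and 0.167 (0.0700 to 0.342) in WT, were alike. Also in this group were Slc51a, Catsperz, a sperm calcium channel subunit, Scn2b, Tbx15, Ffar3, Gpr182, Nlrp4a, of the oocyte-expressed NLRP family, and Grrp1. Prrt3 was under 2-fold in KO, where its ratio was 0.720 (0.633 to 0.818), and had a ratio of 0.0607 (0.0259 to 0.121) in WT.

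A count model with genotype as a term could use the 2 genotypes as the only repeats of a stage. On 9670 genes with recovered reads, edgeR's quasi-likelihood test called 20 higher (0.207%) and 5 lower (0.0517%) in EBs at a Benjamini-Hochberg adjusted p under 0.05. Of the 202 genes it called Mmp9 alone, with a log2 change of 4.003 and an edgeR adjusted p of 0.0330, higher in EBs in 2 of 2 genotypes. Unadjusted p-values under 0.05 were found for 51 higher and 22 lower of the 202. DESeq2 on the same design called 2.83% higher and 1.04% lower, among them 19 and 8 of the 202.

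Coding sequences of the genes were richer in G and C than those of all tested genes, and more of them lay in 1 exon, although most were spread over several. The median GC content was 58.4% in the 202 and 53.4% over all tested genes, and at least 60% GC was found in 33.7% and 13.5%. A coding sequence in 1 exon was found in 33 of the 202 (16.3%) and in 5.18% of all tested genes, and at most 3 coding exons in 37.6% and 15.9%. The median number of coding exons was 5 and 9, and the median longest coding exon 500.5 and 277 bases. Among genes with a mean of at least 100, 18.5% of the members and 4.52% of all tested genes had 1 coding exon. All 33 of these one-exon genes had at least 55% GC, where they made up 9.79% of the 337 tested genes with 1 coding exon. The other exon classes of that GC gave 2.25% to 6.59%. Under 55% GC, 0 of 143 tested genes with 1 coding exon belonged, near the 0.795% to 1.10% of the other exon classes there.

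The 33 genes with 1 coding exon spanned many functions. Beside Pop7, Tbcc and Bloc1s4 they included Hps6, a subunit of the BLOC-2 complex, with 467 in KO EBs against 161 in WT EBs, and 662 in KO ESCs against 162 in WT ESCs. Cebpd, a leucine zipper factor of acute phase and adipocyte programmes, had 272 in KO EBs against 71.7 in WT EBs, and 169.6 in KO ESCs against 22.6 in WT ESCs, and Cited4, a coactivator that binds CBP and p300, had 233 in KO EBs against 51.4 in WT EBs, and 156 in KO ESCs against 17.1 in WT ESCs. Lingo1, Lingo3, Cd248, Fzd1, Ffar3, Gpr182, Sod3, Grrp1, Itprip and Ccdc184 were also of this kind.

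The shift with GC content was general. Over all tested genes, the median log2 ratio of KO to WT went with coding GC: in EBs it was -0.86 under 45% GC, -0.43 at 45 to 50%, -0.10 at 50 to 55%, 0.23 at 55 to 60%, 0.62 at 60 to 65% and 1.06 above. In ESCs the values were -0.29, -0.14, 0.01, 0.14, 0.35 and 0.39 in the same bins. The share of tested genes that belonged to the 202 was 0.194%, 0.568%, 1.56%, 3.24%, 4.98% and 7.04% in that order. Between stages, the medians ran with GC from -0.54 to 0.66 in KO, and in WT from 0.03 to -0.19. The 44 genes lower in KO at both stages had a median of 47.2% GC and 8 coding exons.

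When the median of the tested genes of like GC content, in 20 bins, was subtracted from each log2 ratio, a step chosen after the data were seen, 123 of the 202 genes still met both thresholds and 194 were still at least 2-fold higher at both stages. Their median ratios were then 2.11 in EBs and 1.78 in ESCs, against 2.27 and 1.95. The smallest adjusted ESC value was 1.15, so all 202 stayed past 2-fold in ESCs. The rule largely fixed that ESC outcome, and nothing is read from it. Each gene had been chosen for a high ESC ratio, and the ESC medians in the GC bins above reached only 0.39. The count of 194 was therefore set by the EB values. The median stage change became 0.12 in KO and 0.19 in WT. The part of GC content in the remaining ratios was not tested.

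**Figure D5:**
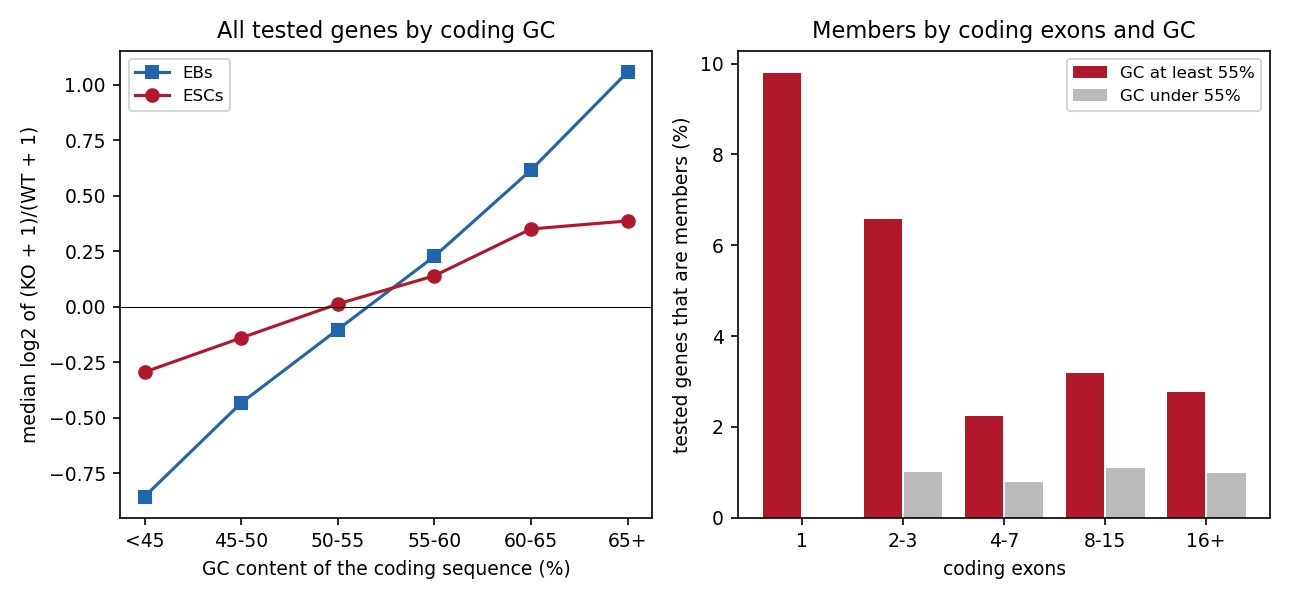
Left, the median log2 of (KO + 1)/(WT + 1) over all tested genes in bins of coding GC content, in EBs (blue squares) and ESCs (red circles). Right, the percent of tested genes that belong to the 202 by number of coding exons, for genes with at least 55% GC (red) and under 55% (grey). With 1 coding exon, 9.79% of the GC-rich genes and 0 of the others belong. The other exon classes under 55% GC give 0.795% to 1.10%.

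The letters GGACT were somewhat denser in the coding sequences, read on the mRNA strand. The median density was 1.42 per kb in the 202 and 1.08 per kb over all tested genes. Within GC classes it was 1.39 and 1.01 per kb under 55% GC, 1.62 and 1.26 at 55 to 60%, and 1.29 and 1.09 at 60% or more. For GGACA, another form of the motif, the medians were 1.78 and 1.56 per kb over all GC classes, 2.01 and 1.48 under 55% GC, 1.66 and 1.76 at 55 to 60%, where the order turned, and 1.61 and 1.54 at 60% or more. These counts describe letters and not methylated sites, since m6A itself was not measured here, and no match was sought outside coding sequence.

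The genes were spread over all 19 autosomes, from 1.03% of the tested genes of chromosome 13 to 3.46% of those of chromosome 5. A stretch of 1 Mb on chromosome 5 that starts at Pop7 held 5 of the genes among 26 tested, against 2.18% of all tested genes. It was picked as the fullest of the windows of this length that start at each of the 202, so its count is a description. They were Pop7, Tfr2, a sensor of iron-bound transferrin, Fbxo24, an F-box protein, Irs3 and Mblac1. The median log2 ratio of all 26 was 0.19 in EBs and 0.25 in ESCs. Side by side with no tested gene between were Syt13 and Prdm11 on chromosome 2, Dtx1 and Oas2 on 5, Lingo1 and Cspg4 on 9, Ccl2 and Ccl7 on 11, Mzb1 and Prob1 on 18, and Cd248 and Tmem151a on 19.

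Near-identical copies elsewhere in the genome touch few of the genes. Under 10% of 28-base coding windows had such a copy for 193 of the 202. The 9 others were Trp53rkb (69.5%), H2-K1, Mmp3, Sec1 (19.9%), Eef1d (19.7%), Duox1 (16.4%), Nlrp4a (15.6%), Cdh11 (14.8%) and Tlcd2 (11.7%), whose counts are uncertain. More than 1 RefSeq entry was summed for 7 genes, and 4 of the 202 are gene models without a functional name.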

How the data were processed

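Ribosome footprints were sequenced from 4 libraries, 1 per group, each assigned by its title. The deposited values are a signal per RefSeq coding sequence, namely read counts that the authors divided by 1 size factor per library. The submitters' processing notes name the build mm10 and the tools DESeq, HTSeq (0.6.0), TopHat2 (2.0.10), Bowtie and CASAVA (1.8.2); their settings, the annotation and the use of strand are not stated in the labels. Values were whole multiples of 1 read in 100% of cases (tolerance 0.01), worth 0.533 in KO ESCs, 0.778 in WT ESCs, 1.49 in KO EBs and 1.56 in WT EBs, so reads were recovered.

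Of 27442 entries, 27079 matched a symbol in a RefSeq table of GRCm38.p6; 363 did not, and 5 summary entries, 66.6% to 72.1% of a library's reads in the table, were left out. Entries were summed per symbol. Log2 ratios used a pseudocount of 1; plain ratios of deposited values carry 95% conditional exact binomial (Clopper-Pearson) intervals on reads, which cover counting error only. A library at 0 was set to 3 reads. With 1 library per group no KO against WT test was made. No count model had been foreseen for a normalised table; edgeR 4.0.16 and DESeq2 1.42.0 were added on recovered reads for EB against ESC with genotype as a term. On simulated data with 200 genes changed 8-fold, edgeR recovered 197 of 200 for that comparison among 9670 genes and called 1 unchanged gene. DESeq2 recovered 200 and called 8 unchanged genes. The simulation had the same spread for every gene and no genotype effect, so it does not give the power in these data.

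The members, gene lists and rules were chosen with earlier results of these data known. Genes were named by rule: the 8 highest means, the 8 largest ratios per stage, the 6 largest stage changes per direction and genotype, and up to 6 members per role list; others were chosen after their values were seen, and some members are not reported here. Coding exons, GC content and copies came from RefSeq (Python 3.11.15, pysam 0.24.0). Alternatives of pseudocount, scaling, filter, entry, threshold and call were tried.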

Additional observations from a re-analysis of the deposited data

How the results depend on the processing

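Over 14 alternatives, 92 values were recomputed, of which 75 moved little, 17 moved more and 0 changed direction. Only the median log2 ratios could change direction, and those of KO to WT were held positive by the rule itself. The label of little movement was broad, as a count of 288 genes in place of 202 received it. The number of genes meeting the rule was 92 with a mean of at least 100, 401 without a filter on the mean, 499 at a log2 ratio of at least 1 and 59 at 2. It was 130 after GC adjustment and 126 with at least 10 reads in each library, both chosen after seeing the data. Scaling to equal totals, which raised the median of all tested genes by 0.12 in EBs and 0.13 in ESCs, gave 288. The share lower in KO EBs than in KO ESCs was 6.52% with a mean of at least 100 and 3.97% with at least 10 reads in each library, where the share lower in WT EBs was 7.94%. Called at 4-fold, the shares were 9.41% higher and 3.96% lower in KO EBs, and 8.42% higher and 10.4% lower in WT EBs. With the interval beyond 2-fold, 19.3% were higher in KO EBs, and 11.4% higher and 9.90% lower in WT EBs. For the stage change over both genotypes, edgeR called 1 of the 202 genes and DESeq2 27. The cause of these moves, beyond fewer or more genes passing a stricter or looser threshold, was not tested. No paired analysis was possible because each group has 1 library and the labels give no replicate numbers, except that EBs and ESCs were paired by genotype in the edgeR and DESeq2 fits.

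With 1 library per group, the ratios of KO to WT cannot be set against the spread between cultures, clones or days. Depth limits the low genes: 76 of the 202 had under 10 reads in at least 1 library, and 1 read was worth 1.56 in WT EBs.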

Other observations

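Outside the autosomes, 10 further entries met the same thresholds: 6 genes on X, 2 on Y and 2 entries that matched no symbol. Bgn, which encodes the proteoglycan biglycan, had 1423 in KO EBs against 252 in WT EBs, and 229.9 in KO ESCs against 59.9 in WT ESCs. Nlgn3, a postsynaptic adhesion protein, had 133 in KO EBs against 15.6 in WT EBs, and 118 in KO ESCs against 8.56 in WT ESCs. The Y-linked helicase gene Ddx3y had 49.3 in KO EBs against 9.35 in WT EBs, and 619 in KO ESCs against 105 in WT ESCs. Uty, a Y-linked demethylase paralog, had 13.4 in KO EBs against 0 reads in WT EBs, and 208 in KO ESCs against 60.7 in WT ESCs. Both Y-linked genes were thus scarce in the EB libraries of both genotypes beside the ESC libraries.

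Of the 16 genes set aside by name, 9 encode collagen chains. Fbln5, a fibulin of elastic fibres, had 179 in KO EBs against 9.35 in WT EBs, and 702 in KO ESCs against 41.3 in WT ESCs, so its highest value was in KO ESCs, where each of the 9 collagens had its highest value in KO EBs. Mgp, an inhibitor of calcification, had 1185 in KO EBs against 79.5 in WT EBs, and 13.9 in KO ESCs against 3.89 in WT ESCs.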
